A study of Homo sapiens with 12 samples.

Results

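The genes described here are those that decitabine and all-trans retinoic acid moved in opposite directions in the MOLM-13 line, which was grown from a human acute myeloid leukemia and carries an MLL fusion. A gene was a member if its mean over the 12 libraries was at least 50 normalised counts, its mean in decitabine (DAC) was at least 1.5 times that in untreated cells, and its mean in all-trans retinoic acid (ATRA) was at most that in untreated cells divided by 1.5. The 3 DAC libraries also had to lie wholly above, and the 3 ATRA libraries wholly below, the 3 untreated libraries. Of 46639 gene symbols, 7797 reached the mean of 50 and 123 were members, after LYZ and CTSG, which met the same limits, had been left out by the rule. The 4 groups, each of 3 libraries, were untreated cells, cells given 100 nM DAC, cells given 1 µM ATRA, and cells given both (DAC+ATRA). Per the labels, all were cultured with 20% fetal calf serum and 5 ng/ml human GM-CSF, a growth factor that itself acts on myeloid cells. The study's general methods for its cell lines give a different serum content and name no GM-CSF. Untreated libraries are labelled 96 h and treated ones 72 h, whereas the design text and the study's methods name 72 h alone. If the labels hold, time and treatment cannot be told apart in any contrast against untreated. The study's methods have ATRA given for a shorter time than DAC. The libraries were technical triplicates of 1 cell line, and p-values measure only the spread between these libraries. No vehicle control was analysed here. The question was where the combination settled for genes on which both drugs pull apart.

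DAC is a cytosine analog that is built into DNA, traps DNA methyltransferases there and so lowers methylation as cells divide. ATRA binds retinoic acid receptors, which turn from repressors into activators at their target genes, and drives granulocytic maturation in some myeloid leukemias. Normal granulocytes make their proteins in waves. Myeloperoxidase and the proteins of the primary (azurophil) granules are transcribed at the promyelocyte stage and shut down later, while proteins of secondary granules and cytosolic S100 proteins follow under factors such as C/EBP epsilon. Eosinophils store a peroxidase, ribonucleases and the Charcot-Leyden crystal protein. Several of these genes are among the 123.

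Recovered reads per library were 8.95 to 11.9 M without drug, 4.67 to 6.95 M with DAC, 8.36 to 10.7 M with ATRA and 5.61 to 7.16 M with both, where M stands for mega. Of 6 myeloid markers, 5 had reads in each group and CSF2RA was listed at 0 in every library. Whether that 0 reflects an absent transcript or the way reads were counted was not tested. The markers of T cells, B cells, red cells and epithelium were at 0 to 37.6 normalised counts in any library, the highest being CD3D, and COL1A1 of fibroblasts was at 4.87 to 86.3. The median distance of a library from the mean of the other libraries of its group, taken over the 123 members on the log2 scale, was 0.13 to 0.17 in untreated, 0.16 to 0.25 in DAC, 0.18 to 0.43 in ATRA and 0.13 to 0.20 in DAC+ATRA. The farthest libraries were ATRA replicate 1 and ATRA replicate 3, and within DAC it was replicate 3. Without DAC replicate 3 the rule gave 123 members, of which 100 were shared, without ATRA replicate 1 it gave 133, of which 123 were shared, and without ATRA replicate 3 it gave 117, of which 110 were shared.

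The members covered a wide range of levels. Normalised counts are read counts divided by 1 size factor per library. They were counted per transcript and summed per gene, and are not comparable between genes. Mean values over the 12 libraries ran from 50.3 to 23988, with a median of 203. Of the members, 116 were protein-coding and 7 were long non-coding RNAs, and they lay on 22 chromosomes. By the rule, DAC was 1.502 to 33.7 times untreated, with a median of 1.95, and untreated was at least 1.52 times ATRA, with a median of 2.63. Among genes with a mean of at least 50, 6.26% met the DAC limits, 15.4% met the ATRA limits and 1.6% met both. The members were chosen by these values, which were therefore not tested. Just inside the DAC limit were FEN1 and EMILIN2, both at 1.502 times untreated. AC011498.7 lay just outside at 1.4998, as did FKBP5 at 1.497. AGT and DRAM1 were just inside the ATRA limit, with untreated at 1.52 times ATRA in each case, and PCNA and CHPT1 just outside at 1.48. AL049552.2 and CBX2 had the lowest means that counted, 50.3 and 50.4, against 48.5 for ANKRD22 and 48.2 for SLC35F1, which missed. The RNA came from whole cultures, so fewer cells that make a transcript and less transcript per cell cannot be told apart.

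In DAC+ATRA the members did not settle at a single level. Against untreated cells, 13 members rose, 39 fell and 71 did not pass the threshold, by limma on log2(normalised count + 1) with Benjamini-Hochberg adjustment over 13448 genes and a call at an adjusted p under 0.01. Over all genes tested, 12.7% were called higher and 13.4% lower, and among genes with a mean of at least 50 these shares were 16.8% and 17.9%. The members' shares were 10.6% higher and 31.7% lower. With all libraries, 1713 of the genes tested were called higher and 1799 lower. Without DAC replicate 3, 15 members rose and 43 fell, beside 2016 and 2103 of all genes tested. Without ATRA replicate 1, 13 rose and 40 fell, beside 1695 and 1814. Without ATRA replicate 3, 13 rose and 41 fell, beside 1653 and 1777. Without untreated replicate 1, 13 rose and 33 fell, beside 1344 and 1356. Without untreated replicate 2, 13 rose and 33 fell, beside 1361 and 1323. The share of members called higher was thus below, and the share called lower above, the share among all genes with a mean of at least 50. The untreated libraries entered the rule, and the members it picked had a median fold of 2.63 for the ATRA fall and 1.95 for the DAC rise. Genes not picked by the rule are therefore not a like background, and this comparison is a description only. The median log2 fold change was -0.11 over the members and -0.01 over all genes tested. The quartiles were -0.86 and 0.28, and the range ran from -4.25 to 4.24. Of the 71 members that were not called, 56 had a log2 fold change of less than 0.5 in size. The SE of a member's log2 fold change had a median of 0.20 and a range of 0.10 to 0.43, and the widest change that was not called was 0.86 in size.

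**Figure D1:**
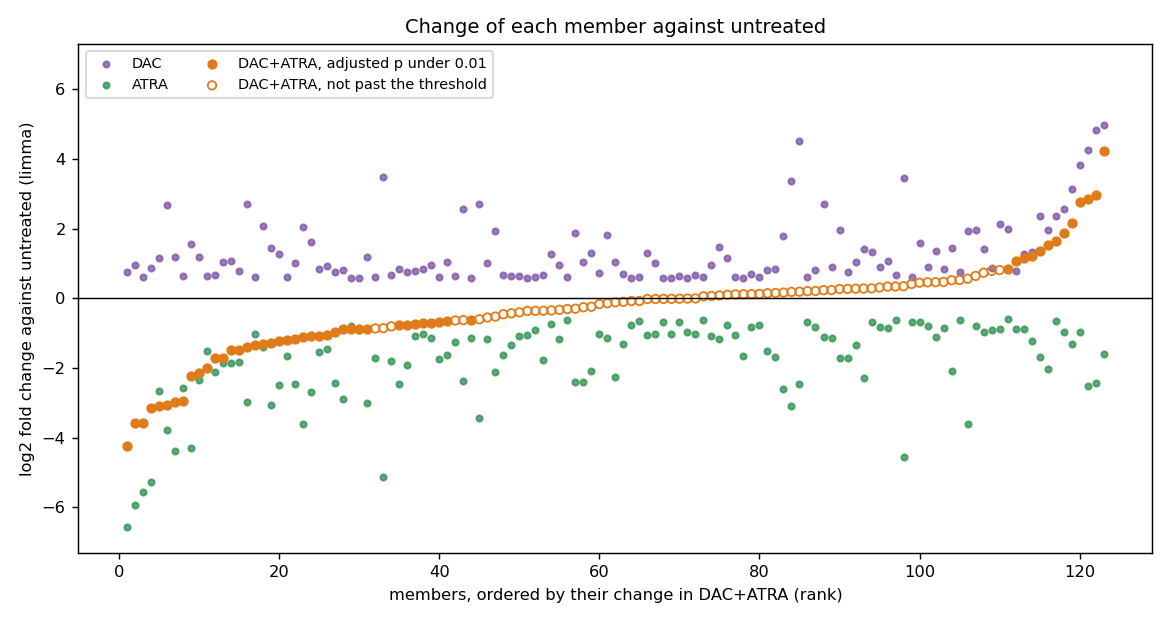
Log2 fold change against untreated (limma, vertical axis) for each of the 123 members, ordered along the horizontal axis by their change in DAC+ATRA. Purple points are DAC, green points ATRA, and orange points DAC+ATRA, filled where the adjusted p was under 0.01. The rule puts every purple point above 0 and every green point below it, while the orange points run from -4.25 to 4.24.

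DAC+ATRA mostly lay between both single drugs. In 100 of the 123 members, all 3 DAC+ATRA libraries were below the lowest DAC library and above the highest ATRA library. The share of all genes that met both conditions at once was not counted, so this number is a description only. Over the genes with a mean of at least 50, 23% had all DAC+ATRA libraries below DAC and 23.5% had them above ATRA, against 115 and 108 members. The fit called 89 members lower than DAC and 0 higher, beside 8.94% and 8.2% of all genes tested. By limma, edgeR and DESeq2 alike, 0 members were higher than DAC at an unadjusted p under 0.05. It called 89 members higher than ATRA and 1 lower, beside 5.33% and 4.96%. The rule had picked DAC libraries that were high and ATRA libraries that were low, which favours exactly these calls, and they are given as a description only. Of the 59 members called both lower than DAC and higher than ATRA, 35 were not called against untreated, 19 were lower than untreated and 5 were higher. The share of all genes with both calls was not counted either. Another 30 were above ATRA and were not called against DAC, and 29 were below DAC and were not called against ATRA.

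To give the place of DAC+ATRA for each member, its mean was set on the log2 scale between the mean of ATRA, at 0, and that of DAC, at 1. This position had a median of 0.49, quartiles of 0.34 and 0.65, and a range of -0.23 for CST7 to 1.19 for GFOD1. Untreated cells had a median position of 0.57 on the same scale, with quartiles of 0.48 and 0.65. DAC+ATRA was between 0.25 and 0.75 in 86 members, from 0 to 0.25 in 15 and from 0.75 to 1 in 16. It was below ATRA in 5 and above DAC in 1. It lay under the position of untreated cells in 71 of the 123. Set against untreated, all DAC+ATRA libraries were below in 55 members and above in 26, and they overlapped in 42. Over the genes with a mean of at least 50, 32.1% were below and 31.1% above. The 90 genes that met the mirror limits, lower in DAC and higher in ATRA, were split the other way, with 39 higher and 13 lower than untreated and a median log2 fold change of 0.48. Both sets share their control libraries, and the difference between them was not tested.

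**Figure D2:**
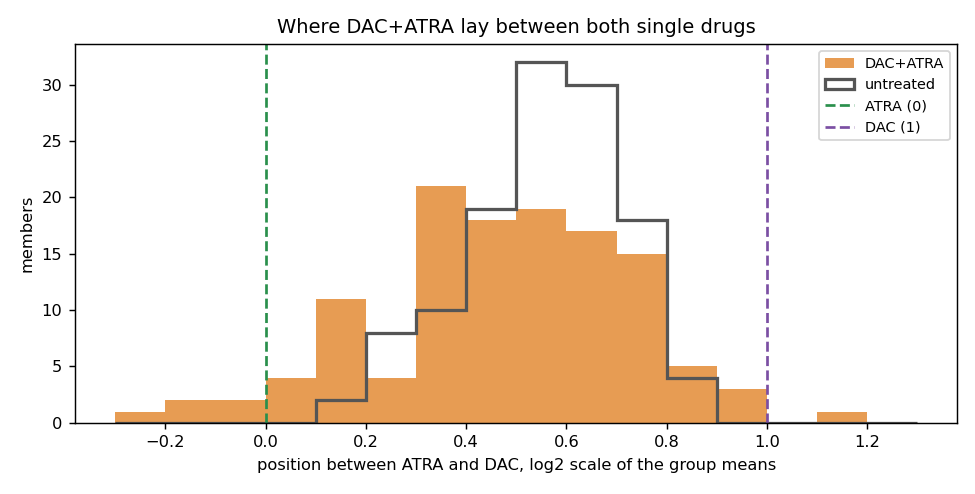
Number of members (vertical axis) by the position of DAC+ATRA (orange bars) and of untreated cells (grey outline) between ATRA, at 0, and DAC, at 1, on the log2 scale of the group means (horizontal axis). The DAC+ATRA bars spread from -0.23 to 1.19 around a median of 0.49, and the untreated outline is narrower around 0.57.

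Granule and eosinophil proteins gave 11 members, among them MPO and RNASE2, which had some of the highest normalised counts. Of the 11, 3 rose in DAC+ATRA against untreated, 6 fell and 2 were not called. MPO, the myeloperoxidase of azurophil granules (chromosome 17, 58269855 to 58280935 on GRCh38), counted 1513, 1515 and 1511 in untreated cells, 27376, 22174 and 16548 with DAC, 1059, 776 and 580.2 with ATRA, and 9201, 10966 and 11105 with both. The DAC+ATRA libraries were below all DAC libraries and far above all untreated ones. Against untreated the difference was 6.89-fold, with a log2 fold change of 2.78 (SE 0.18, limma adjusted p = 4.36e-10). EPX, the eosinophil peroxidase that lies 64681 bases from MPO on the same chromosome, counted 564, 893 and 745 in untreated cells, 2267, 2017 and 1662 with DAC, 96.8, 63.3 and 101 with ATRA, and 283, 324 and 276 with both. Its DAC+ATRA libraries lay under every untreated library and above every ATRA library, with a log2 fold change of -1.29 (SE 0.18, limma adjusted p = 1.58e-05) against untreated. These neighbouring peroxidase genes thus ended on opposite sides of the untreated level.

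CLC, which encodes the Charcot-Leyden crystal protein of eosinophils, counted 137, 146 and 95.3 in untreated cells, 2393, 2693 and 2102 with DAC, 25.98, 26.8 and 13.4 with ATRA, and 979.9, 890.4 and 852 with both. Like MPO it stayed above untreated without overlap, with a log2 fold change of 2.86 (SE 0.21, limma adjusted p = 3.18e-09). RNASE2, the eosinophil-derived neurotoxin, counted 3664, 3492 and 2884 in untreated cells, 7829, 7355 and 8966 with DAC, 827, 589 and 436 with ATRA, and 1619.6, 1310.2 and 1335 with both. All of its DAC+ATRA libraries were below untreated and above ATRA, with a log2 fold change of -1.23 (SE 0.17, limma adjusted p = 1.15e-05). RNASE3, the eosinophil cationic protein, is a close relative 63139 bases from RNASE2 on chromosome 14, and reads shared by both genes may have been assigned unevenly. It counted 255, 223 and 170.0 in untreated cells, 455, 420.3 and 482 with DAC, 68.1, 51.3 and 56.01 with ATRA, and 93.8, 65.3 and 69.4 with both. Here DAC+ATRA overlapped ATRA and lay below untreated, with a log2 fold change of -1.49 (SE 0.19, limma adjusted p = 3.45e-06).

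CST7, or cystatin F, an inhibitor of the cathepsins that activate granule proteases, counted 2576, 2522 and 2276 in untreated cells, 4138, 3724 and 3591 with DAC, 703, 906 and 1002 with ATRA, and 659, 598 and 588 with both. It was the only member called below ATRA in DAC+ATRA, with a log2 fold change between these groups of -0.49 (limma adjusted p = 0.00832), and that call was made in 10 of 24 other settings and in 3 of the 12 that left out 1 library. Against untreated it had a log2 fold change of -1.997 (SE 0.12, limma adjusted p = 1.91e-10). SERPINB10, a serine protease inhibitor of myeloid cells, counted 275, 343 and 237 in untreated cells, 725, 776 and 1143 with DAC, 40.3, 47.6 and 41.8 with ATRA, and 182, 96.8 and 133 with both. MS4A3, a membrane protein of granulocyte progenitors, counted 573, 541 and 467 in untreated cells, 728, 719.8 and 967 with DAC, 202, 135 and 141 with ATRA, and 361, 308 and 310.4 with both. Both were between ATRA and untreated without overlap, with log2 fold changes against untreated of -1.08 (limma adjusted p = 5.22e-04) and -0.69 (limma adjusted p = 0.00218). The MS4A3 call was lost without any 1 of untreated replicates 1 and 2 and DAC+ATRA replicates 2 and 3, with an adjusted p of at most 0.0147.

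Of the remaining members of this group, PRG3, a relative of eosinophil major basic protein, counted 28.00, 27.6 and 28.2 in untreated cells, 281, 332 and 335 with DAC, 0.90, 0 and 0 with ATRA, and 47.6, 49.5 and 19.4 with both. ATRA left no more than 1 read of PRG3 in any library, so untreated was at least 11.3-fold higher, taking 3 reads per library as the floor. DAC+ATRA overlapped untreated, with a log2 fold change of 0.35 (SE 0.36, limma adjusted p = 0.48). LTC4S, the leukotriene C4 synthase, also overlapped untreated, at 30.8, 51.8 and 40.8 against 47.4, 41.4 and 57.1, with a log2 fold change of -0.25 (SE 0.40, limma adjusted p = 0.655). SLPI, a secreted inhibitor of neutrophil elastase, was higher than untreated in all DAC+ATRA libraries, at 118, 72.04 and 72.5 against 20.2, 29.2 and 19.4, with a log2 fold change of 1.87 (SE 0.34, limma adjusted p = 2.58e-04).

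**Figure D3:**
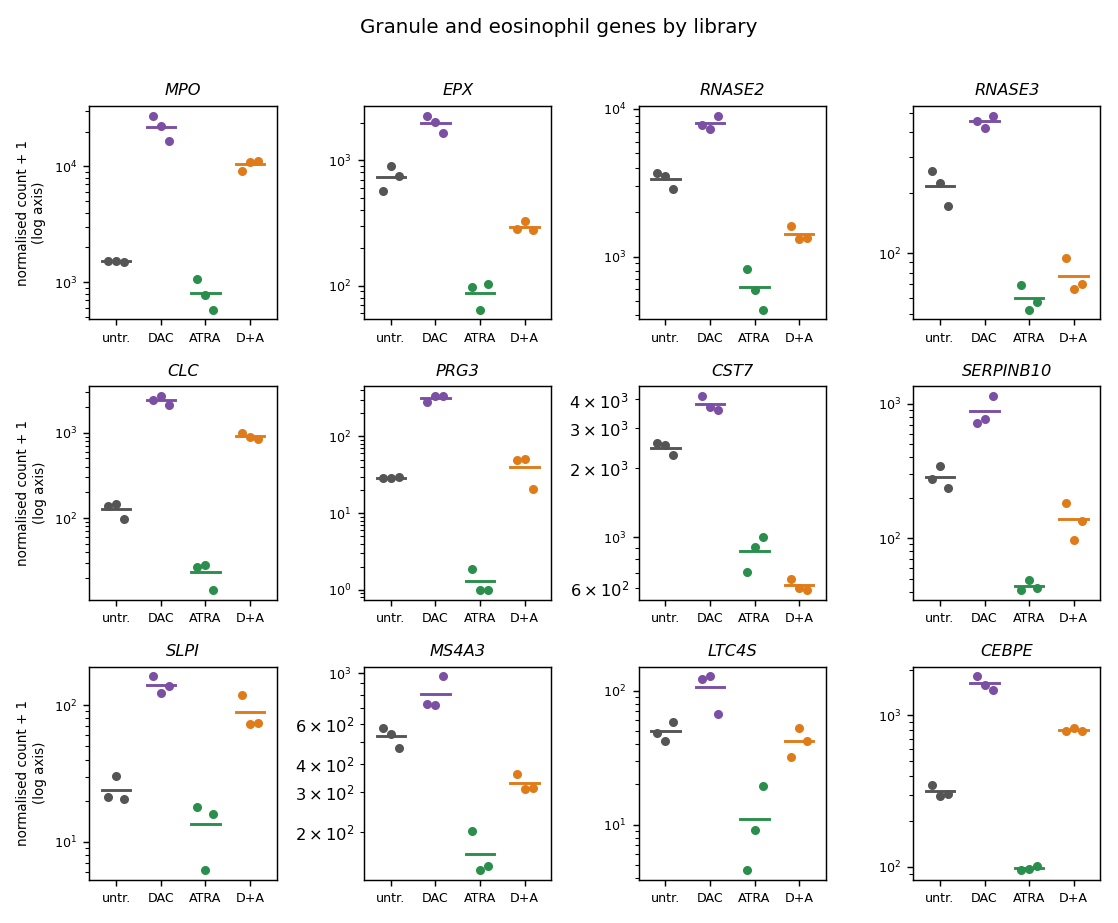
Normalised count plus 1 (vertical log axes, each with its own range) of 11 granule and eosinophil genes and of CEBPE in untreated (untr.), DAC, ATRA and DAC+ATRA (D+A) libraries. Points are libraries and bars are group means. MPO, CLC, SLPI and CEBPE have all DAC+ATRA libraries above untreated, whereas EPX, RNASE2, RNASE3, CST7, SERPINB10 and MS4A3 have them below.

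Among the 15 tested genes of a list of azurophil and antimicrobial proteins, 5 were members (MPO, RNASE2, RNASE3, CST7 and SERPINB10), and 3 genes rose and 7 fell in DAC+ATRA. The other genes of this list that rose were CTSC, the protease that activates granule proteases, at 0.66 (limma adjusted p = 3.56e-04), and SRGN, the granule proteoglycan serglycin, at 0.83 (limma adjusted p = 0.00164). ELANE, the neutrophil elastase, fell by 2.43 on the log2 scale (limma adjusted p = 2.91e-04). Of 12 tested genes on a list of mast cell, basophil and eosinophil genes, 5 were members (MS4A3, CLC, PRG3, EPX and LTC4S), and 4 genes rose and 4 fell. PRG2, the major basic protein itself, was not a member, since its DAC libraries did not meet the limit. Its means were 1134 ± 210.1 without drug, 1368 ± 575 with DAC, 39.9 ± 10.05 with ATRA and 121 ± 21.6 with both drugs (SD, n = 3). Of 15 tested neutrophil maturation genes, which were not members, 9 rose in DAC+ATRA.

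Of 7 nuclear and chromatin proteins, 1 rose, 1 fell and 5 were not called. CEBPE, the C/EBP epsilon factor of late granulocyte maturation, counted 348, 295 and 301 in untreated cells, 1814, 1598 and 1469 with DAC, 94.1, 95.99 and 99.5 with ATRA, and 794, 831 and 794 with both. Its DAC+ATRA libraries lay close together, below DAC and above untreated, with a log2 fold change of 1.36 (SE 0.12, limma adjusted p = 2.86e-08). IRX3, a homeobox factor, was the member of this group that fell. It counted 92.5, 70.6 and 104 in untreated cells, 201, 188 and 213 with DAC, 4.48, 4.46 and 1.67 with ATRA, and 15.4, 7.88 and 9.19 with both, so that DAC+ATRA lay above every ATRA library and below every untreated one, at a position of 0.25. Against untreated it had a log2 fold change of -2.96 (SE 0.33, limma adjusted p = 7.2e-07). MNDA, an interferon-inducible nuclear protein of myeloid cells, overlapped the untreated range in DAC+ATRA at 753, 658 and 636, against 952, 889.8 and 691 in untreated. In DAC it counted 2529, 2667 and 4308, with replicate 3 the highest. The linker histone gene H1-1 (at 0.17), the polycomb protein gene CBX2 (0.27) and the zinc finger genes ZNF350 (0.46) and ZNF438 (-0.43) were not called, where the values are log2 fold changes against untreated. Histone genes share sequence, so the H1-1 value is uncertain.

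The S100 proteins, small calcium-binding proteins of the granulocyte cytosol, and the orosomucoids, acute-phase plasma proteins that granulocytes also store, gave 5 members. In DAC+ATRA 2 of them fell and 3 were not called. S100A9, a subunit of calprotectin, counted 467, 363 and 363 in untreated cells, 3933, 3999 and 4425 with DAC, 41.2, 47.6 and 48.5 with ATRA, and 441, 466 and 441 with both. DAC was 10.4 times untreated, and DAC+ATRA overlapped untreated, with a log2 fold change of 0.19 (SE 0.13, limma adjusted p = 0.266). S100A8, the partner subunit encoded 29009 bases away on chromosome 1, counted 31.9, 30.04 and 39.5 in untreated cells, 204, 274 and 208 with DAC, 3.58, 1.49 and 6.69 with ATRA, and 6.999, 12.4 and 20.4 with both. It ended below untreated in all DAC+ATRA libraries, with a log2 fold change of -1.39 (SE 0.40, limma adjusted p = 0.00948). That call was lost in 12 of 25 other settings and ranged up to an adjusted p of 0.0612. S100P, a secreted member of the family, counted 204, 174 and 227 in untreated cells, 888, 866 and 737 with DAC, 16.1, 18.6 and 12.5 with ATRA, and 129, 82.2 and 72.5 with both, and its DAC+ATRA libraries were below untreated, with a log2 fold change of -1.12 (SE 0.21, limma adjusted p = 2.86e-04). ORM1 and ORM2 are near-identical genes 3390 bases apart on chromosome 9, and their split is uncertain. ORM1 counted 242, 262 and 172 in untreated, 1159, 1085 and 1866 in DAC and 153, 117 and 165 in DAC+ATRA, with a log2 fold change of -0.62 (SE 0.21, limma adjusted p = 0.0233) for DAC+ATRA against untreated. ORM2 was at 48.99, 72.04 and 64.3 in DAC+ATRA against 105, 98.2 and 77.8, with a log2 fold change of -0.60 (SE 0.35, limma adjusted p = 0.196). ORM1 passed the threshold in 3 of 24 other settings, which were the compared groups alone, without DAC replicate 3 and without untreated replicate 3.

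Metallothioneins, small cysteine-rich proteins that bind zinc, copper and cadmium, gave 5 members within 1 cluster on chromosome 16 (MT2A, MT1M, MT1G, MT1H and MT1X), all of them between 56608584 and 56684196 on GRCh38. None was called in DAC+ATRA against untreated by limma, edgeR or DESeq2, and 2 had an unadjusted p under 0.05 in each. Their genes are induced through metal response elements, short motifs bound by the factor MTF1, whose core letters are TGCGCNC or TGCACNC. To show matches to these letters, the 150 bases before the start of 3 of them are given as separate windows. They come from the RefSeq promoter table (GRCh38.p14, plus strand, 5′ to 3′), with each match to either core on either strand in capitals.
MT1H, chr16:56669664-56669813: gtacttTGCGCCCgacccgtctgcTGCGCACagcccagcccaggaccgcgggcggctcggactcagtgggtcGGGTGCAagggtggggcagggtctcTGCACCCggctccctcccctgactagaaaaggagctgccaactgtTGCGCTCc
MT1X, chr16:56682320-56682469: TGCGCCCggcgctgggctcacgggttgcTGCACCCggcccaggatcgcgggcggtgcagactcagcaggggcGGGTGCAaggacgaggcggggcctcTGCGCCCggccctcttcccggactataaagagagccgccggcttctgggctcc
MT2A, chr16:56608434-56608583: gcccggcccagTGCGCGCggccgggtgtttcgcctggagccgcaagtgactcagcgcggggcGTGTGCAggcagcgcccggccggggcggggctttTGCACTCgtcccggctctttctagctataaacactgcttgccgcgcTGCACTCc
MT1H held 5 matches and MT1X and MT2A held 4 each. Over the 27305 promoters of the table, 17.2% held at least 1 match in this window and 0.132% at least 4. The motif was chosen after the values were seen, and a match is a string of letters and not a site shown to be bound. MT1G and MT1M have no entry in the table. Of all 123 members, 88 (71.5%) had one, under the 80% needed, so the planned comparison of promoter features between members and other genes was void.

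MT1X counted 771, 627 and 639 in untreated cells, 2074, 1968 and 1657 with DAC, 318, 307 and 278 with ATRA, and 841, 688 and 635 with both. DAC+ATRA overlapped untreated, with a log2 fold change of 0.08 (SE 0.13, limma adjusted p = 0.654). MT2A, at 209, 165 and 262 in untreated cells, 837, 859 and 353 with DAC, 112, 149.6 and 127 with ATRA, and 219.8, 360.2 and 292 with both, overlapped untreated as well, with a log2 fold change of 0.45 (SE 0.27, limma adjusted p = 0.203). MT1G counted 179.6, 169 and 159 in untreated cells, 807, 834 and 402 with DAC, 41.2, 32.7 and 40.96 with ATRA, and 133, 114 and 107 with both, and DAC+ATRA lay below untreated by a margin that did not pass the threshold, with a log2 fold change of -0.52 (SE 0.22, limma adjusted p = 0.0714). MT1H had no more than 1 read in any ATRA library and counted 45.1, 40.6 and 39.5 in untreated, 569.9, 624 and 298 in DAC and 29.4, 22.5 and 17.4 in DAC+ATRA, with a log2 fold change of -0.86 (SE 0.34, limma adjusted p = 0.0565). MT1M, at 7.78, 11.4 and 9.41 in untreated, reached 267, 256 and 194 in DAC and was at 14.00, 9.01 and 10.2 in DAC+ATRA, with a log2 fold change of 0.19 (SE 0.40, limma adjusted p = 0.747). In DAC, replicate 3 was the lowest library for all 5 members, and at 402 it held for MT1G less than the others at 807 and 834. MT1G passed the threshold against untreated without that library and with the compared groups alone. These genes are close copies, and the counts of single genes are uncertain. The positions of the 5 were 0.37 to 0.49. Among metallothionein genes that were tested and were not members, MT1F had a mean of 69.1 ± 4.997 without drug, 223 ± 101 with DAC, 54.2 ± 8.62 with ATRA and 89.4 ± 19.9 with both drugs (SD, n = 3).

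**Figure D4:**
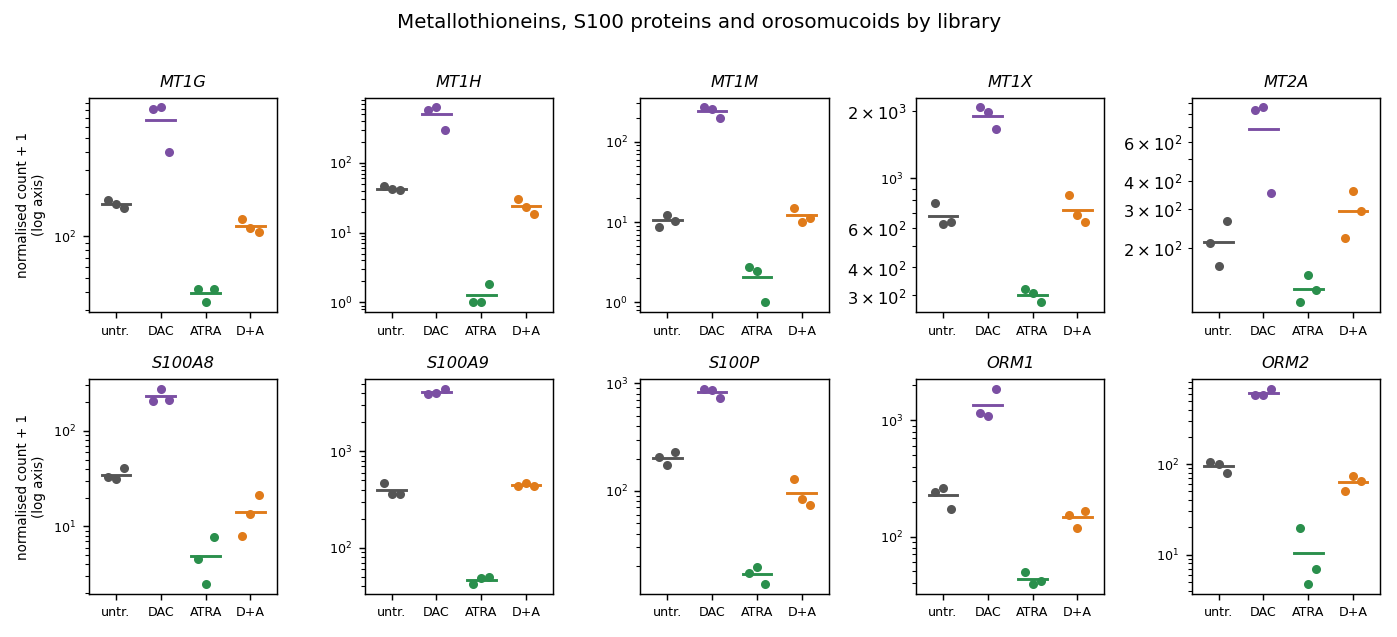
Normalised count plus 1 (vertical log axes, each with its own range) of the 5 metallothioneins and of the 5 S100 and orosomucoid members in untreated (untr.), DAC, ATRA and DAC+ATRA (D+A) libraries. Points are libraries and bars are group means. DAC+ATRA libraries overlap untreated for S100A9, MT1X, MT2A and MT1M and lie below it for S100A8, S100P, ORM1, ORM2, MT1G and MT1H.

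Proteins of the endoplasmic reticulum gave 5 members. The 4 linked to protein folding were not called, and the other, CKAP4, fell. CALR, the chaperone calreticulin, had the highest normalised counts of all members, at 21583, 23085 and 19820.3 in untreated cells, 41323, 36372 and 47394 with DAC, 12936, 9472 and 8372 with ATRA, and 23049, 22372 and 22076 with both. DAC+ATRA overlapped untreated, with a log2 fold change of 0.07 (SE 0.14, limma adjusted p = 0.743). PPIB, the prolyl isomerase cyclophilin B, followed the same order, with 8218, 8078 and 7734 in DAC+ATRA against 8104, 7944 and 7062 in untreated, 11828, 10447 and 13177 in DAC and 5545, 5003 and 4570.4 in ATRA, and a log2 fold change of 0.06 (SE 0.11, limma adjusted p = 0.714). TMX4, a membrane thioredoxin, was at 2949, 2797 and 2653 against 3471, 3700.4 and 3216 in untreated, with a log2 fold change of -0.31 (SE 0.12, limma adjusted p = 0.0447), and MANF, a secreted folding factor, had a log2 fold change of 0.34 (SE 0.12, limma adjusted p = 0.0356). Both passed the threshold when the compared groups alone entered the fit. CKAP4, a membrane protein of rough endoplasmic reticulum sheets, differed from the rest of this group. It counted 56.8, 48.7 and 58.3 in untreated cells, 345, 318 and 408 with DAC, 5.38, 2.98 and 1.67 with ATRA, and 9.80, 4.50 and 4.08 with both, so that DAC+ATRA overlapped ATRA, with a log2 fold change of -3.05 (SE 0.35, limma adjusted p = 1.28e-06). A gene on the opposite strand overlaps CKAP4.

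DNA replication, nucleotide supply and cell cycle were represented by 10 members, of which 9 were not called against untreated and 1 fell. FEN1, the nuclease that trims Okazaki fragments, counted 1726, 1782 and 1554 in untreated cells, 2607, 2421 and 2572 with DAC, 1124, 843 and 610.3 with ATRA, and 1831, 1664 and 1528 with both. Untreated and DAC+ATRA overlapped, with a log2 fold change of -0.01 (SE 0.15, limma adjusted p = 0.96). GGH, which removes glutamates from folates, counted 1720.2, 1801 and 1656 in untreated cells, 3306, 3239.9 and 3559 with DAC, 964, 879.6 and 526 with ATRA, and 1572, 1272 and 1297 with both, and its DAC+ATRA libraries lay below untreated without passing the threshold, with a log2 fold change of -0.33 (SE 0.16, limma adjusted p = 0.124). DTYMK, the thymidylate kinase (0.21), DSCC1, of a clamp loader for cohesion (-0.36), E2F2, a factor for S-phase genes (0.15), CDC20, an activator of the anaphase-promoting complex (-0.07), RBBP8, which resects DNA ends (-0.01), and TIMELESS, of the fork protection complex (0.31), were not called either, where values are log2 fold changes of DAC+ATRA against untreated. CCNA1, the cyclin A1 of myeloid and germ cells, was the member of this group that fell. It counted 263, 280.1 and 255 in untreated cells, 536, 467 and 398 with DAC, 37.6, 32.7 and 35.1 with ATRA, and 153, 123 and 157 with both, below untreated and above ATRA in all DAC+ATRA libraries, with a log2 fold change of -0.89 (SE 0.16, limma adjusted p = 1.81e-04). On a list of 25 cell cycle genes, which held no member, 6 fell in DAC+ATRA. Since members made up 0.915% of the genes tested, no member on a list of this size is near the background.

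Lysosomal, phagosomal and redox genes gave 6 members with outcomes in each direction, as 2 rose, 2 fell and 2 were not called. DNASE2, the acid nuclease of lysosomes, counted 468, 554 and 447 in untreated cells, 1354, 1190.3 and 1129.9 with DAC, 168, 236 and 223 with ATRA, and 1121, 1084 and 1210.0 with both. Its DAC+ATRA libraries overlapped DAC, at a position of 0.96, and lay above untreated, with a log2 fold change of 1.22 (SE 0.14, limma adjusted p = 7.99e-07). DRAM1, a lysosomal membrane protein of p53-linked autophagy, counted 457, 419.7 and 341 in untreated cells, 1567, 1543 and 1734 with DAC, 291, 252 and 257 with ATRA, and 792, 707 and 694 with both, between untreated and DAC without overlap, with a log2 fold change of 0.86 (SE 0.12, limma adjusted p = 2.05e-05). CAT, the catalase that breaks down hydrogen peroxide, counted 8659, 7842 and 7131 in untreated cells, 12829.5, 11639 and 15446 with DAC, 2271, 2079.8 and 1923 with ATRA, and 5045, 4301 and 4511 with both. It remained below untreated, with a log2 fold change of -0.77 (SE 0.12, limma adjusted p = 4.11e-05). SLC11A1, a metal transporter of phagosomes, counted 181, 192 and 178 in untreated cells, 458, 444 and 347 with DAC, 19.7, 30.5 and 37.6 with ATRA, and 19.6, 12.4 and 36.8 with both, and DAC+ATRA overlapped ATRA, with a log2 fold change of -3.08 (SE 0.29, limma adjusted p = 1.16e-07). RAB32, a GTPase of lysosome-related organelles, was slightly above untreated in all DAC+ATRA libraries without passing the threshold, with a log2 fold change of 0.24 (SE 0.13, limma adjusted p = 0.166).

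Leukocyte surface receptors and other surface proteins gave 14 members, with 2 higher, 6 lower and 6 not called in DAC+ATRA, and both ends of the whole range. STAB1, the scavenger receptor stabilin-1 of macrophages and endothelium, counted 9.33, 4.87 and 11.3 in untreated cells, 342, 295 and 222 with DAC, 3.58, 2.23 and 0.84 with ATRA, and 143, 179 and 192 with both. Its untreated and ATRA libraries held few reads, and it was 20.2-fold above untreated in DAC+ATRA, with a log2 fold change of 4.24 (SE 0.34, limma adjusted p = 1.28e-08). ITGA9, the integrin alpha-9 chain, counted 24.9, 24.4 and 13.8 in untreated cells, 163, 215 and 189 with DAC, 5.38, 11.9 and 6.69 with ATRA, and 96.6, 90.1 and 99.04 with both, and was above untreated without overlap, with a log2 fold change of 2.17 (SE 0.29, limma adjusted p = 7.7e-06). At the other end, C5AR2, the second receptor for complement C5a, counted 169.5, 164 and 206 in untreated cells, 307, 287 and 327 with DAC, 2.69, 0 and 0.84 with ATRA, and 9.80, 4.50 and 13.3 with both. ATRA left at most 3 reads in a library, so that untreated was at least 72.7-fold higher. With DAC added, C5AR2 remained far below untreated, with a log2 fold change of -4.25 (SE 0.40, limma adjusted p = 9.3e-08). CLEC12A, an inhibitory lectin of myeloid cells, counted 94.9, 75.5 and 56.5 in untreated cells, 109, 130.2 and 210.1 with DAC, 0, 0 and 0.84 with ATRA, and 9.80, 4.50 and 3.06 with both, and had at most 1 read in an ATRA library, with untreated at least 30.5-fold higher. Its DAC+ATRA libraries were also far below untreated, with a log2 fold change of -3.59 (SE 0.42, limma adjusted p = 1.6e-06).

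PLXND1, a semaphorin receptor, counted 1477, 1668 and 1554 in untreated cells, 2939, 2504 and 1889 with DAC, 29.6, 30.5 and 37.6 with ATRA, and 129, 124 and 137 with both. DAC+ATRA lay above ATRA and 12.1-fold below untreated, with a log2 fold change of -3.58 (SE 0.15, limma adjusted p = 8.42e-13). TREML2, a receptor of the TREM family, counted 159, 153 and 144 in untreated cells, 294, 301 and 242 with DAC, 6.27, 2.23 and 1.67 with ATRA, and 8.40, 27.02 and 18.4 with both, with a log2 fold change of -3.15 (SE 0.37, limma adjusted p = 1.76e-06). CXCR4, the receptor for the niche chemokine CXCL12, counted 419.9, 453 and 416 in untreated cells, 860.0, 787 and 677 with DAC, 108, 205 and 143 with ATRA, and 235, 189 and 189.9 with both. DAC+ATRA overlapped ATRA, with a log2 fold change of -1.07 (SE 0.18, limma adjusted p = 1.02e-04). ANPEP, the aminopeptidase CD13 of granulocytes and monocytes, counted 156, 179 and 178 in untreated cells, 773, 735 and 662 with DAC, 60.9, 61.8 and 71.1 with ATRA, and 50.4, 77.7 and 79.6 with both. It likewise overlapped ATRA, although DAC alone had given 4.23 times untreated, with a log2 fold change of -1.32 (SE 0.17, limma adjusted p = 7.56e-06) for DAC+ATRA against untreated. CD52, a small glycosylated surface peptide, counted 666, 672 and 568 in untreated cells, 1355, 1507 and 1804 with DAC, 428, 369.8 and 345 with ATRA, and 498, 487 and 512 with both, with DAC+ATRA under all untreated libraries and a log2 fold change of -0.34 (SE 0.13, limma adjusted p = 0.0375). The other 5 members of this group, CD320, PILRA, NFAM1, HCST and ADGRG3, were not called, with log2 fold changes of 0.53, -0.02, 0.65, -0.14 and 0.81. PILRA overlaps PILRB on the same strand. CD320 was called higher without DAC replicate 3 and with the compared groups alone. NFAM1 was called higher with the compared groups alone, and ADGRG3 by DESeq2.

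Secreted proteins gave 10 members, of which 2 rose, 3 fell and 5 were not called. AGT, angiotensinogen, counted 55.2, 56.02 and 45.8 in untreated cells, 318, 262 and 249 with DAC, 43.9, 37.95 and 21.7 with ATRA, and 192, 136 and 169 with both, with a log2 fold change of 1.64 (SE 0.23, limma adjusted p = 1.46e-05). SERPINF1, the pigment epithelium-derived factor, counted 189, 169.7 and 201 in untreated cells, 487, 408 and 466 with DAC, 75.3, 102 and 133 with ATRA, and 371, 440.1 and 438 with both. Its DAC+ATRA libraries overlapped DAC and were above untreated, with a log2 fold change of 1.15 (SE 0.17, limma adjusted p = 2.9e-05). LGALS3, the lectin galectin-3, showed the reverse outcome, with 460.4, 403 and 321 in untreated cells, 688, 806 and 968 with DAC, 98.6, 126 and 99.5 with ATRA, and 122, 106 and 132 with both, and DAC+ATRA overlapped ATRA, with a log2 fold change of -1.70 (SE 0.17, limma adjusted p = 1.54e-07). BMP8B, a growth factor of the BMP family, fell as well, at 246, 272 and 251 in DAC+ATRA against 813, 874 and 827 in untreated, with a log2 fold change of -1.70 (SE 0.14, limma adjusted p = 1.18e-08). PTX3, a pentraxin stored in neutrophil granules, was at 50.4, 56.3 and 54.1 in DAC+ATRA, 73.5, 70.7 and 54.3 in ATRA and 124, 145 and 139 in untreated, with a log2 fold change of -1.32 (SE 0.17, limma adjusted p = 6.25e-06) against untreated. EMILIN2, an extracellular matrix glycoprotein, counted 2058, 2232 and 2281 in untreated cells, 3292, 3309 and 3268 with DAC, 1399, 1259.8 and 1242 with ATRA, and 1926, 2099 and 2217 with both, and DAC+ATRA overlapped untreated, with a log2 fold change of -0.07 (SE 0.10, limma adjusted p = 0.579). IGFBP7 (0.28), NMB (0.47), F12 (0.27) and KAZALD1 (-0.02) did not pass the threshold.

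Of 3 germline genes, MAGEB2, a cancer/testis antigen of the X chromosome, counted 26.4, 27.6 and 23.8 in untreated cells, 87.8, 109.8 and 113 with DAC, 6.27, 8.19 and 3.34 with ATRA, and 69.99, 77.7 and 84.7 with both. DAC+ATRA was below DAC and above untreated without overlap, with a log2 fold change of 1.54 (SE 0.28, limma adjusted p = 2.58e-04). NANOS1, a germ-cell RNA-binding protein, was at 157, 115 and 126 in DAC+ATRA against 179.6, 174 and 188, with a log2 fold change of -0.45 (SE 0.18, limma adjusted p = 0.0513), and PIWIL4, of the piRNA pathway, had a log2 fold change of -0.16 (SE 0.12, limma adjusted p = 0.318). FUT4 overlaps PIWIL4 on the same strand at a higher level, so the PIWIL4 value is uncertain. Of the 7 long non-coding RNAs, 2 fell and 5 were not called. Both that fell, AL031123.1 and AL031123.5, are overlapping transcripts on opposite strands of chromosome 6. AL031123.1 counted 162, 122 and 139.9 in untreated cells, 268, 191 and 201 with DAC, 23.3, 18.6 and 27.6 with ATRA, and 18.2, 18.01 and 16.3 with both, with DAC+ATRA below every ATRA library and a log2 fold change of -2.93 (SE 0.22, limma adjusted p = 3.71e-09) against untreated. PURPL, a p53-induced RNA, had at most 3 reads in an ATRA library and counted 39.2, 37.1 and 61.3 in DAC+ATRA against 42.8, 28.4 and 21.95 in untreated, with a log2 fold change of 0.56 (SE 0.38, limma adjusted p = 0.26). XACT, which coats the X chromosome in early embryos, varied within DAC, at 795, 1609 and 2148, and was 0.24 (limma adjusted p = 0.557) in DAC+ATRA against untreated on the log2 scale. DANCR (0.12), AC104232.1 (-0.55) and AL049552.2 (0.28) were not called either.

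The remaining 40 members fell into none of these groups, and among them 2 rose, 15 fell and 23 were not called. NAV3, a microtubule-binding neuron navigator, counted 20.2, 17.05 and 30.7 in untreated cells, 541, 696 and 728 with DAC, 6.27, 2.98 and 1.67 with ATRA, and 179, 163 and 197 with both. It was above untreated without overlap, with a log2 fold change of 2.97 (SE 0.30, limma adjusted p = 2.66e-07). GFOD1, of an oxidoreductase family, had the highest position of all members and counted 75.4, 66.6 and 74.6 in untreated cells, 116, 143 and 121 with DAC, 57.3, 28.3 and 35.9 with ATRA, and 209, 126 and 136 with both. Its DAC+ATRA libraries overlapped DAC and were above untreated, with a log2 fold change of 1.07 (SE 0.24, limma adjusted p = 0.00161), and the call was lost without DAC+ATRA replicate 1. NUP210, a nuclear pore glycoprotein, and VAT1, a vesicle amine transport protein, were not called. NUP210 counted 2815, 3415 and 3378 in untreated cells, 5788, 5067 and 3909.9 with DAC, 1987, 1518 and 1176 with ATRA, and 3295, 3525 and 3551 with both, with a log2 fold change of 0.11 (SE 0.16, limma adjusted p = 0.609). VAT1 counted 1549.6, 1505 and 1516 in DAC+ATRA against 1601, 1718 and 1580.1 in untreated, with a log2 fold change of -0.10 (SE 0.12, limma adjusted p = 0.538). CES1, a carboxylesterase of liver and monocytes, counted 282, 283 and 295 in untreated cells, 558, 492 and 503 with DAC, 151, 131 and 139 with ATRA, and 161, 165 and 196 with both, below untreated in DAC+ATRA, with a log2 fold change of -0.72 (SE 0.13, limma adjusted p = 2.30e-04). JPH1, a junctional membrane protein, had the lowest log2 fold change of the 40, at -2.22 (limma adjusted p = 7.34e-06). Others that fell were ABCB10, TNFAIP8, IFT57, SERINC5, MLC1, ANO5, SLC22A4, HOMER3, FEZ1, C4orf46, PDE4D and PLCD3, between -1.48 for PDE4D and -0.61 for ANO5. Of these, IFT57, MLC1, ANO5, FEZ1, C4orf46 and PLCD3 lost the call without at least 1 untreated or DAC+ATRA library. Those not called were LIN7A, ST14, RDH10, PRSS12, ISOC1, NEFH, SLC48A1, NXT2, PHLDA3, KCTD15, ABTB2, CLSTN2, UPK3A, LDLRAD3, TRHDE, BASP1, PXK, BCR, SRD5A1, ILDR2 and CELSR3 besides NUP210 and VAT1, from -0.86 for LDLRAD3 to 0.79 for PHLDA3. LDLRAD3 was called lower in 8 of 24 other settings, DESeq2 and edgeR among them, and PHLDA3 was called higher in 5, among them DESeq2 and edgeR with the DESeq2 size factors.

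Whether the combination departed from the added single-drug changes was asked with the interaction term, which is the effect of ATRA with DAC minus its effect without DAC (log2). Calls were made in 6 of the 123 members, 3 positive and 3 negative, by limma at an adjusted p under 0.01. Over all genes tested, 0.573% were called positive and 0.714% negative, and the shares of the members were 2.44% each. DESeq2 on the recovered reads called 13 members, 9 positive and 4 negative, beside 139 positive and 198 negative of the 13448 genes tested. Limma had called 77 and 96 of these genes. In all, 75 members had a positive value, and 50 had an unadjusted p under 0.05. The shares of both over all genes were not counted, so these counts are a description only. The untreated, DAC and ATRA libraries entered both the rule and this term. The median was 0.22 over the members and 0.02 over all genes tested. The member median depended on the setting. It was 0.07 with an added count of 5 in place of 1 (68 members positive). Without ATRA replicate 3 it was 0.07 (66 positive), and without ATRA replicate 1 it was 0.35 (82 positive). The other 117 members did not pass this threshold. At an adjusted p under 0.05 the same fit called 13 members, beside 181 positive and 213 negative of all genes tested.

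Of all members ANPEP lay furthest below the sum, with an interaction of -2.001 (SE 0.25, limma adjusted p = 8.73e-05). Untreated was 2.65 times ATRA, while DAC was 10.5 times DAC+ATRA. CST7 was also below the sum, with an interaction of -1.12 (SE 0.17, limma adjusted p = 7.20e-04), as was CD52, with an interaction of -0.89 (SE 0.18, limma adjusted p = 0.00712). For CD52, untreated was 1.67 times ATRA, and DAC was 3.12 times DAC+ATRA. Among the called members PLXND1 lay furthest above the sum, with an interaction of 1.35 (SE 0.21, limma adjusted p = 8.29e-04). CCNA1 had an interaction of 1.20 (SE 0.22, limma adjusted p = 0.00389) and DNASE2 an interaction of 1.13 (SE 0.19, limma adjusted p = 0.00172). Untreated cells held 48.1 times as much PLXND1 as ATRA cells, and DAC cells held 18.8 times as much as DAC+ATRA cells. For DNASE2 these ratios were 2.34 and 1.08, and for CCNA1 they were 7.56 and 3.24. ANPEP, CST7, DNASE2 and PLXND1 were called in all of 23 other settings, CCNA1 in 16 and CD52 in 12.

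**Figure D5:**
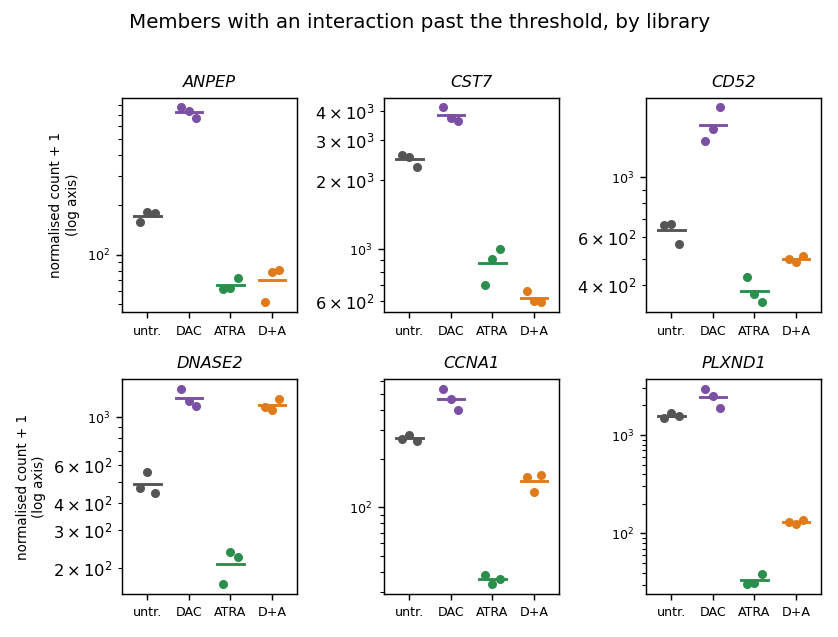
Normalised count plus 1 (vertical log axes, each with its own range) of the 6 members whose interaction passed the threshold, in untreated (untr.), DAC, ATRA and DAC+ATRA (D+A) libraries, in order from the most negative term (ANPEP, -2.001) to the most positive (PLXND1, 1.35). Points are libraries and bars are group means. For ANPEP the DAC+ATRA libraries overlap ATRA, for CST7 they are below it, and for DNASE2 they overlap DAC.

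Members were counted on the other lists of related genes as well. They made up 0.915% of the 13448 genes tested. Among genes with a mean of at least 50, which alone could be members, 1.6% met both limits. Of 22 tested monocyte and macrophage genes 4 were members (S100A8, S100A9, LGALS3 and CES1), and 7 of the 22 rose and 7 fell in DAC+ATRA. Retinoid targets, of which 12 of 13 tested genes rose, held 1 member, CEBPE. Granule and lysosome trafficking genes held 2 members of 17 tested (SLC11A1 and RAB32), leukocyte adhesion and migration genes held 1 of 20 (CXCR4), myeloid transcription factors held 1 of 21 (CEBPE), and cancer/testis and germline genes held 1 of 3 (MAGEB2). Lists of immature progenitor, platelet and megakaryocyte, erythroid, cytokine and chemokine, and MHC class II genes held no member. Nor did those of interferon-stimulated, p53 target, cholesterol and fatty acid synthesis, and ATF4 and serine pathway genes. The p53 target list did not include DRAM1 and PURPL, members described above as linked to p53, so it does not cover every such gene. In the genome, 19 members had another member within 100000 bases. They were the 5 metallothioneins and the pairs S100A8 and S100A9, RNASE2 and RNASE3, ORM1 and ORM2, MPO and EPX, CALR and DNASE2, CAT and ABTB2, and AL031123.1 and AL031123.5. Against untreated, MPO and EPX moved in opposite directions, and DNASE2 rose while CALR was not called.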

How the data were processed

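RNA-seq of MOLM-13 was analysed in 12 libraries of 4 groups, taken from the labels. Per the labels and the study's methods, ribosomal RNA was depleted, stranded paired-end libraries were sequenced, reads were aligned to hg38 with STAR, counted with HTSeq and normalised with DESeq2. The annotation release, versions and strand setting are not given in the sources used here. The deposited values are a normalised signal, which the authors made by dividing read counts by 1 size factor per library. All values were whole multiples of 1 step per library (tolerance 0.01 read), so reads could be recovered. The 100502 transcript rows were summed per symbol, columns named CTRL were taken as untreated, and coordinates came from GENCODE release 44. Since these are not counts, limma 3.58.1 in R 4.3.3 (lmFit, eBayes with trend) was fitted on log2(normalised count + 1) over the 13448 symbols that reached 10 normalised counts in 3 or more libraries, with all 12 libraries and 1 coefficient per group, Benjamini-Hochberg adjustment and a call at an adjusted p under 0.01. This scale understates changes of low genes. The limma fit was tested on simulated data. Alternatives used edgeR 4.0.16, DESeq2 1.42.0, other scalings, pseudocounts, filters and thresholds, a replicate block, and each library left out in turn.

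The members, the 19 gene lists and the tests were chosen with earlier results of these data known, and the role groups, the metallothionein list and the motif after values were seen. Values were given for the 12 most abundant members, the 5 highest and 5 lowest in DAC+ATRA against untreated, members on a list, members with a called interaction and those nearest to the limits of the rule. Other members named with values were chosen after their values were seen. Bounds against the floor of 3 reads cover counting error only. Some members are counted here but not reported by name.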

Additional observations from a re-analysis of the deposited data

Results flagged for a closer look

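In 6 members the effect of ATRA with DAC differed from its effect without DAC by the interaction term, which is on the log2 scale (limma, adjusted p under 0.01, 3 libraries per group). The term was -2.001 for ANPEP, which encodes the aminopeptidase CD13, and it was past the threshold in all of 23 other settings, between -2.12 and -1.79. PLXND1, the semaphorin receptor, had a term of 1.35, past the threshold in all 23, between 1.18 and 1.49. DNASE2, the lysosomal nuclease, had a term of 1.13, past the threshold in all 23, between 0.98 and 1.23. CST7, or cystatin F, had a term of -1.12, past the threshold in all 23, between -1.27 and -1.01. CCNA1, the cyclin A1, had a term of 1.20 and was past the threshold in 16 of the 23, with an adjusted p of at most 0.0205. CD52 had a term of -0.89 and was past the threshold in 12 of the 23, with an adjusted p of at most 0.0289. The untreated, DAC and ATRA libraries in this term are also those by which the members were chosen, so these p-values are not independent of that choice.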

How the results depend on the processing

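The rule gave 45 members with a fold limit of 2 and 270 with a limit of 5/4, in place of 123 at 1.5, and 109 to 133 when 1 library was left out. With 1 library left out, the members called in DAC+ATRA against untreated numbered 46 to 58 (52 with all), against DAC 84 to 95 (89) and against ATRA 77 to 96 (90), the interaction was called in 4 to 7 (6), and the median change against untreated was -0.15 to -0.11. Interaction calls rose to 13 with DESeq2 (9 positive, 4 negative) and to 13 at an adjusted p under 0.05 (7 positive, 6 negative). Over all genes tested they rose as well, from 77 positive and 96 negative to 139 and 198 with DESeq2 and to 181 and 213 at 0.05. The labels give same-numbered libraries only a number in common, and whether they share more was not tested. Of 18 correlations of their deviations, 4 were over 0.1 (range -0.45 to 0.27). With a replicate block, 52 members were called against untreated, 89 against DAC, 88 against ATRA and 5 for the interaction. Of the 43 genes named by the rule, 5 changed their call against untreated in some setting. S100A8 and MS4A3 lost it, and GGH, TMX4 and CD52 gained it when only the compared groups entered the fit. TMX4 and CD52 also gained it at an adjusted p under 0.05. No direction turned among calls. Depth was lowest in DAC, at 4.67 M recovered reads, and members with few reads in ATRA have positions that depend on the added count of 1.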
